A study of Mus musculus with 502 samples.

Results

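Genome windows around known tumour suppressor genes held 1662 of the 397136 silencers in the Ss-STARR-seq lists of 3 human cell lines. The members were chosen by position alone: a silencer counted when its midpoint lay in 1 of 13 windows on the hg38 build, which together span 8.05 Mb. Of 125249 silencers in 293T, 437 lay in a window. The count was 596 of 134159 in K562 and 629 of 137728 in LNCap. Of these windows, 11 carry the name of a gene: RB1, BRCA1, BRCA2, APC, NF1, NF2, VHL, SMAD4, ATM, STK11 and CDH1. The other 2 windows, on chromosomes 10 and 17, carry no gene name here and are called by their chromosome. No human gene annotation was used, so where a gene starts and ends inside its window was not examined.

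In Ss-STARR-seq, sheared genomic fragments are cloned into a reporter plasmid and transfected, and sequencing compares each fragment's abundance between plasmid DNA (input) and reporter RNA (output). The series holds 502 libraries: the output RNA libraries number 102 for 293T, 180 for K562 and 179 for LNCap, and the input DNA libraries 1 for 293T and 40 for LNCap. K562 is a leukaemia line, LNCap a prostate cancer line, and 293T an embryonic kidney line that carries the simian virus large T antigen. The labels list no treatment, no genotype and no K562 input library, and they call every library mouse although the lines and the build are human. The lists were analysed as human. Each line is represented by 1 silencer list made by the authors, with no replicate list and no read count, so read depth is unknown and no difference between lines has a replicate check. All intervals below cover counting error only and are not adjusted for their number. Fragments were tested on plasmids, away from their place in the chromosome.

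A silencer is a DNA element that lowers transcription from a promoter. Tumour suppressors restrain growth or protect the genome, and tumours often lose them by deletion, mutation or lowered transcription. The genes of these windows act in separate pathways. RB1 holds cells before entry into DNA synthesis by binding E2F factors. BRCA1 and BRCA2 act in repair of broken DNA by homologous recombination, and ATM is the kinase that signals such breaks. APC keeps beta-catenin low in WNT signalling, and CDH1 encodes the adhesion molecule E-cadherin. NF1 switches RAS off, NF2 (merlin) acts upstream of the Hippo pathway, and STK11 (LKB1) activates the energy sensor AMPK. VHL marks hypoxia-inducible factors for destruction, and SMAD4 is the common partner SMAD of TGF-beta signalling.

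The windows were denser in silencers than the lists as a whole, more so in K562 and LNCap than in 293T. Over all 13 windows 293T had 54.3 silencers per Mb (95% Poisson interval 49.3 to 59.6), K562 had 74.0 (68.2 to 80.2) and LNCap had 78.1 (72.1 to 84.5). The lists as a whole held 43.2, 46.3 and 47.6 per Mb of the genome they occupy. Relative to its list, the density of the windows was thus 1.26 times as high for 293T (1.14 to 1.38), 1.60 times for K562 (1.47 to 1.73) and 1.64 times for LNCap (1.52 to 1.78). The interval of 293T does not meet those of K562 and LNCap, which overlap each other.

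Part of this density was shared with the surroundings. Measured against the rest of the same chromosomes, the windows were 1.23 times as dense for 293T (1.12 to 1.35), 1.41 times for K562 (1.29 to 1.52) and 1.44 times for LNCap (1.33 to 1.56). Measured against 1 Mb on each side, the values were 1.08 (0.984 to 1.19), 1.18 (1.09 to 1.28) and 1.24 (1.14 to 1.34). In 293T the windows were therefore not distinguishable from their flanks at this number of silencers. Gene content and base composition of the windows were not examined.

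Single windows differed widely. Of the 13 windows, 10 were denser than the list in 293T, against 49.8% of 600 kb tiles of the genome, 10 in K562, against 42.3% of tiles, and 11 in LNCap, against 39.8%. The Poisson interval lay wholly above the density of the list in 4 windows for 293T (15.2% of tiles), 9 for K562 (16%) and 9 for LNCap (17.9%). No window had an interval wholly below it, against 15.2% of tiles in 293T, 20.0% in K562 and 22.6% in LNCap. Compared with the rest of the chromosome, 10 windows were denser in each list, against 47.5% of tiles in 293T, 43.7% in K562 and 42.1% in LNCap. Compared with the flanks, 7 were denser in 293T, 9 in K562 and 11 in LNCap, against 48.2%, 46.9% and 46.2% of tiles. Windows range from 0.5 to 0.8 Mb, so tiles match them only roughly.

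**Figure D1:**
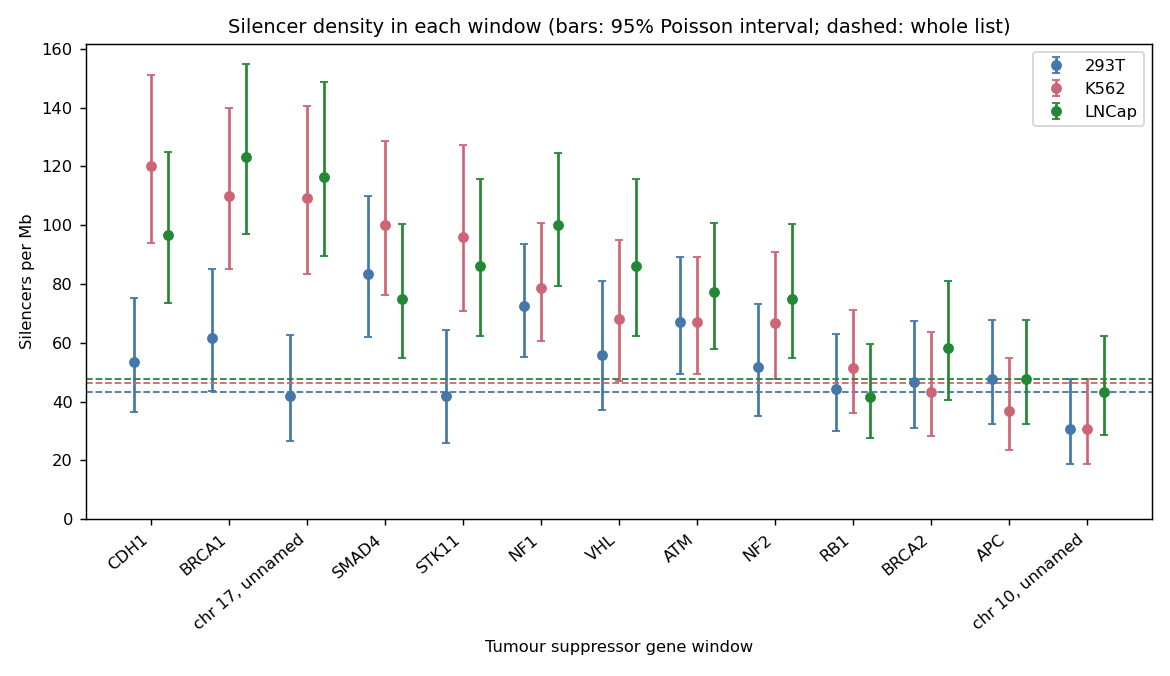
Silencers per Mb in each of the 13 windows (y axis) for the 3 lists, ordered by the K562 value; bars are 95% Poisson intervals and dashed lines the density of each whole list. K562 and LNCap reach 120 per Mb at CDH1 and 123 per Mb at BRCA1, while 293T peaks at 83.3 per Mb at SMAD4.

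The order of the windows was not the same in the 3 lists. K562 was densest at CDH1 (120 silencers per Mb) and, among named windows, sparsest at APC (36.9). LNCap was densest at BRCA1 (123) and sparsest at RB1 (41.4). 293T was densest at SMAD4 (83.3) and, among named windows, sparsest at STK11 (42.0). The highest density was 3.90 times the lowest over the 13 windows in K562, 2.98 times in LNCap and 2.71 times in 293T. Across the 13 windows the Spearman correlation of densities was 0.85 between K562 and LNCap. Between 293T and K562 it was 0.38, and between 293T and LNCap 0.34. Over 600 kb tiles of the genome the same pairs gave 0.78, 0.60 and 0.55. These are descriptions over windows, which share their lists and are not replicates.

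The 3 windows of DNA repair genes together had 58.9 silencers per Mb for 293T (48.5 to 70.9), 73.2 for K562 (61.5 to 86.4) and 85.8 for LNCap (73.1 to 100.02), but they were unlike each other. The BRCA1 window (chromosome 17, 42.8 to 43.4 Mb) held 37 silencers for 293T, 66 for K562 and 74 for LNCap. That is 61.7 per Mb (interval 43.4 to 85.0), 110 per Mb (85.1 to 139.9) and 123 per Mb (96.8 to 155). The interval of LNCap lies above that of 293T, and that of K562 begins where that of 293T ends. In LNCap 98.5% of genome tiles were sparser, and chromosome 17 outside the window held 65.9 per Mb. Silencers were unevenly spread. The 50 kb from 43.15 to 43.2 Mb held 6, 11 and 11 silencers, the fullest such bin of the window, whereas the bin from 43.25 to 43.3 Mb held none in any list. The longest stretch without a silencer in any list ran for 81.6 kb, from 43225075 to 43306651. Whether fragments covered this stretch and reads could be placed there was not examined. The same holds for the empty stretches of the other windows.

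Few overlapping silencers had the same ends in 2 lists. Over all windows they were 3 of the 102 K562 members that overlapped LNCap. Of 293T members they were 1 of the 18 that overlapped K562 and 1 of the 21 that overlapped LNCap. Widths were a multiple of 50 bp in 93.1% of 293T, 90.1% of K562 and 94.4% of LNCap members. Its part in the identical ends was not tested, and the whole lists were not counted. Some of the identical ends lay in the BRCA1 window. A silencer at 43348501 to 43348801 was listed with identical ends in K562 (score 4.4) and LNCap (score 3.4). A 50 bp silencer at 42940851 to 42940901 had identical ends in 293T (score 2) and K562 (score 2.2). The highest K562 score of the window, 4.9, belonged to 43008016 to 43008066, inside a 350 bp LNCap silencer from 43007887 to 43008237 that scored 2.1. The highest LNCap score, 3.7 at 43152554 to 43152604, overlapped a K562 silencer scoring 3.2. The highest 293T score, 3.4 at 42801398 to 42801448, overlapped neither other list.

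The BRCA2 window (chromosome 13, 32.05 to 32.65 Mb) was much sparser, with 28 silencers for 293T, 26 for K562 and 35 for LNCap. Their densities of 46.7, 43.3 and 58.3 per Mb all had intervals that include the density of the list. It held the highest score of any window in 293T and in LNCap, the top of 437 and of 629 members. The 293T silencer at 32526700 to 32526758 scored 6.3, a value reached by 0.0894% of the 293T list, and overlapped no other list. The LNCap silencer at 32559450 to 32559501 scored 5.9, reached by 0.184% of its list, and lay in a 450 bp K562 silencer that scored 2.2. The highest K562 score, 4.9 at 32124600 to 32124651, overlapped no other list. The fullest 50 kb bin lay from 32.55 to 32.6 Mb, with 2, 5 and 6 silencers. From 32184131 to 32245119, 61.0 kb carried no silencer.

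The ATM window (chromosome 11, 107.95 to 108.65 Mb) was denser than the list in all 3 lines, and here the lines differed little. It held 47 silencers for 293T, 47 for K562 and 54 for LNCap, or 67.1, 67.1 and 77.1 per Mb, and every interval lay above the density of its list. Chromosome 11 outside the window held 43.0, 44.7 and 46.4 per Mb. Of 137 ATM regions, 4 were held by 293T and K562 alone, the most of any window, against 0.763% of regions genome-wide. The strongest of these, at 108278851 to 108279183, joined the highest 293T score of the window (4.3) with a K562 silencer scoring 2.3. No ATM region was held by 293T and LNCap alone, against 0.856% of regions genome-wide. The same was true of APC and the unnamed window on chromosome 10. The highest K562 score, 4 at 108385595 to 108385645, lay within a LNCap silencer scoring 3. The top LNCap silencer (score 3.3) at 108427981 to 108428031 overlapped no other list. The fullest 50 kb bin was that from 108.15 to 108.2 Mb, with 7, 6 and 3 silencers.

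The RB1 window (chromosome 13, 48.05 to 48.75 Mb), around the cell cycle gene, was close to the list in every line: 31 silencers for 293T, 36 for K562 and 29 for LNCap. Densities were 44.3 per Mb (interval 30.1 to 62.9), 51.4 (36.0 to 71.2) and 41.4 (27.7 to 59.5). These intervals overlap, so no difference between lines was detectable at this number of silencers. The fullest 50 kb bin lay at the end of the window, from 48.7 to 48.75 Mb, with 6, 5 and 3 silencers. The widest K562 silencer of all windows was here, at 48637514 to 48638251 (737 bp, score 2.5), and it overlapped a LNCap silencer. The highest LNCap score was 4.7 at 48614301 to 48614351 and the highest 293T score 4.3 at 48261251 to 48261451. Neither overlapped another list, whereas the highest K562 score, 4 at 48082748 to 48082798, met a LNCap silencer scoring 2.6.

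Of the genes of WNT signalling and adhesion, APC was the sparsest named window in K562 and CDH1 the densest. The APC window (chromosome 5, 112.45 to 113.1 Mb) held 31 silencers for 293T, 24 for K562 and 31 for LNCap, or 47.7, 36.9 and 47.7 per Mb. All 3 intervals include the density of the list. No 50 kb bin held more than 9 silencers, and 1 of the fullest, from 112.75 to 112.8 Mb, had 6 in 293T and none in K562. K562 and LNCap nevertheless met at the highest K562 score: a silencer at 112610200 to 112610250 (score 4.2) overlapped one at 112610197 to 112610247 in LNCap (score 3.8). In LNCap the top score, 4.1 at 112516701 to 112516801, also met K562, with a score of 2.7 there. The highest 293T score was 3.8 at 112528226 to 112528276.

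The CDH1 window (chromosome 16, 68.5 to 69.1 Mb) held 32 silencers of the 293T list, 72 of K562 and 58 of LNCap. K562 thus had 120 per Mb (interval 93.9 to 151), above the whole interval of 293T at 53.3 per Mb (36.5 to 75.3). LNCap, at 96.7 per Mb (73.4 to 125), overlapped both. In K562 the density was 2.69 times that of the rest of chromosome 16 and 1.75 times that of the flanks, and 98.8% of genome tiles were sparser. The highest K562 score of all windows, the top of 596 members, was here. It was 5.5 at 69045301 to 69045351, a value reached by 0.167% of the list. The highest LNCap score was 4.9 at 68531901 to 68531951, and the highest 293T score 3.3 at 69096051 to 69096301. None of the 3 overlapped another list. Of 72 K562 silencers, 8 (11.1%, Wilson interval 5.74 to 20.4) overlapped LNCap, an interval that includes the 15.7% of the list. From 68.6 to 68.65 Mb, the fullest 50 kb bin held 3, 11 and 8 silencers.

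The 3 windows of growth signalling genes together had 57.9 silencers per Mb for 293T (47.6 to 69.8), 79.5 for K562 (67.3 to 93.2) and 88.4 for LNCap (75.6 to 103). The NF1 window (chromosome 17, 30.85 to 31.65 Mb), the widest at 0.8 Mb, held the most silencers, with 58 from 293T, 63 from K562 and 80 from LNCap. Densities were 72.5, 78.8 and 100 per Mb, and each interval lay above the density of its list. The silencers crowded at the start of the window, where the first 2 bins of 50 kb held 26 and 28, against a median of 12. From 31.3 to 31.35 Mb a single K562 silencer was listed. A 50 bp silencer at 30964309 to 30964359 had identical ends in K562 (score 3.5) and LNCap (score 3.8). The highest 293T score was 3.6 at 31199851 to 31199901, and the highest K562 score 4.2 at 30955551 to 30955601. The highest LNCap score, 4.4, lay at 31445701 to 31445751 and met a K562 silencer scoring 2.5.

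The NF2 window (chromosome 22, 29.35 to 29.95 Mb) held 31, 40 and 45 silencers in 293T, K562 and LNCap, or 51.7, 66.7 and 75.0 per Mb. All 3 exceeded the rest of chromosome 22, at 32.9, 49.2 and 53.1 per Mb, but not by more than counting error in K562, whose interval ran from 47.6 to 90.8. A silencer at 29736951 to 29737001 had the same ends in 293T (score 2.6) and LNCap (score 3.7). The fullest 50 kb bin, from 29.55 to 29.6 Mb, held 3, 5 and 9 silencers. The highest scores were 4.2 for 293T (29608097 to 29608147), 3.1 for K562 (29390651 to 29390701) and 4 for LNCap (29501933 to 29501983), and none of these silencers overlapped another list.

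The STK11 window (chromosome 19, 1.0 to 1.5 Mb) showed a wide gap between the lines. It held 21 silencers for 293T, 48 for K562 and 43 for LNCap, or 42.0 (interval 26.0 to 64.2), 96.0 (70.8 to 127) and 86.0 per Mb (62.2 to 116). The K562 interval lies above that of 293T. This is a dense chromosome: outside the window chromosome 19 held 60.6, 91.1 and 97.5 per Mb. 293T and LNCap were sparser in the window than on the rest of it, but within counting error. Their intervals include the values of the rest of the chromosome. The first 50 kb of the window held 6, 5 and 8 silencers, and no bin held more. From 1.3 to 1.35 Mb there were 12 silencers in K562 and 7 in LNCap but none in 293T. The longest LNCap run, 4 silencers with gaps of up to 500 bp, spanned 1510 bp from 1403601 to 1405111. A silencer at 1164901 to 1164951 had identical ends in K562 (score 2.6) and LNCap (score 2.2), and 61.0 kb before it held none. The highest scores were 4.3 for 293T (1247057 to 1247107), 4.4 for K562 (1462734 to 1462784) and 3.2 for LNCap (1333551 to 1333601), each in 1 list alone.

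The VHL window (chromosome 3, 9.9 to 10.4 Mb) held 28 silencers for 293T, 34 for K562 and 43 for LNCap, or 56.0, 68.0 and 86.0 per Mb. They filled only part of the window: from 10308951 to its end, 91.0 kb, no list had a silencer, the longest free stretch in any window. VHL also had 1 of the 4 regions held by all 3 lists, at 9941652 to 9941815, with scores of 2.9 for 293T, 3.1 for K562 and 3.5 for LNCap. The highest K562 score, 4.2 at 9990937 to 9990987, lay within a LNCap silencer that scored 2.2. In LNCap the top score, 3.8 at 10027851 to 10027951, met a K562 silencer scoring 2.7, and the highest 293T score, 4.3 at 9921601 to 9921651, met none. The fullest 50 kb bin, from 10.0 to 10.05 Mb, held 3, 8 and 6 silencers.

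The SMAD4 window (chromosome 18, 50.75 to 51.35 Mb) was the densest of all in 293T. It held 50 silencers for 293T, 60 for K562 and 45 for LNCap, or 83.3 (interval 61.9 to 109.9), 100 (76.3 to 129) and 75.0 per Mb (54.7 to 100.4). The 3 intervals overlap and each lies above the density of its list. In 293T, 97.8% of genome tiles were sparser, and the window was 1.72 times as dense as its flanks; in K562 it was 2.25 times as dense. Of 60 K562 silencers, 4 (6.67%, Wilson interval 2.62 to 15.9) overlapped LNCap, and the 15.7% of the whole K562 list lies within that interval. Silencers were most crowded from 51.05 to 51.1 Mb, where a 50 kb bin held 7, 8 and 6. Outside that bin, the highest scores of K562 and LNCap met, with 4.5 in K562 at 51334600 to 51334701 and 4.4 in LNCap at 51334687 to 51334737. The highest 293T score, 5.1 at 50948951 to 50949001, overlapped neither list.

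The 2 windows with no gene named differed from each other. The window on chromosome 17 held 23 silencers for 293T, 60 for K562 and 64 for LNCap, or 41.8, 109 and 116 per Mb, with K562 and LNCap intervals wholly above that of 293T. The window on chromosome 10 held 20, 20 and 28 silencers, or 30.8, 30.8 and 43.1 per Mb, the lowest of all windows in 293T and K562. Its fullest 50 kb bin held 12 silencers, and that of the chromosome 17 window 33, the most of any window. Highest scores were 3.1, 4.6 and 4.3 on chromosome 17 and 2.9, 3.3 and 3.5 on chromosome 10.

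**Figure D2:**
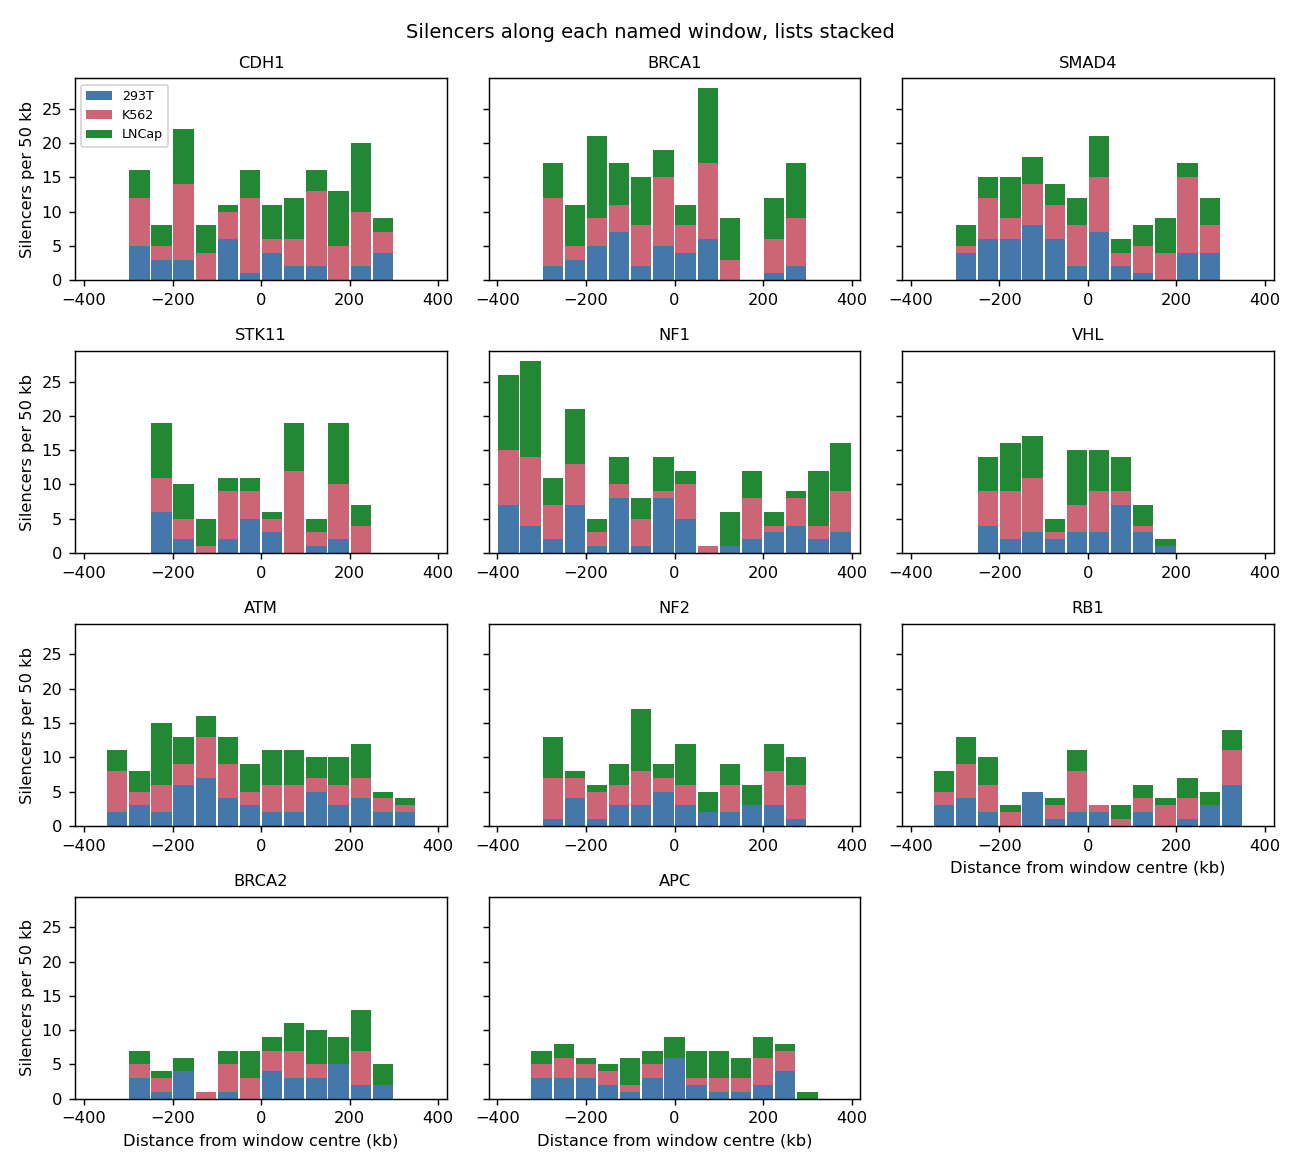
Silencers per 50 kb (y axis) along the 11 named windows, against distance from the window's centre in kb, with the 3 lists stacked. Among these 11 windows the fullest bins hold 28 silencers, at BRCA1 and NF1; the last bin of VHL and 1 bin of BRCA1 are empty in all lists.

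At the finer scale of 50 kb, the windows had a median of 9 silencers per bin over the 3 lists, against 6 in the genome. Of 161 bins, 2 were empty in every list, against 5.04% of genome bins. Over these bins the Spearman correlation of K562 with LNCap was 0.54, against 0.45 over all 50 kb bins of the genome. That of 293T was 0.23 with K562 and 0.15 with LNCap, against 0.27 for both. Neighbouring bins are not independent, so these are descriptions.

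The 3 lists took unequal parts of the windows. 293T supplied 26.3% of their silencers (exact binomial interval 24.2 to 28.5), below its 31.5% of all silencers. K562 supplied 35.9% (33.6 to 38.2, against 33.8%) and LNCap 37.8% (35.5 to 40.2, against 34.7%). With lists scaled to equal size, 293T stood at 0.775 times the average of the remaining lists, K562 at 1.10 times and LNCap at 1.15 times.

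The 293T share was lowest at windows on chromosomes 16, 17 and 19. The share of 293T had an interval that excludes 31.5% in 4 of 13 windows, against 17.9% of tiles: chromosome 17 with no gene named, STK11, CDH1 and BRCA1. For K562 the interval excludes its genome share only at CDH1 (6.19% of tiles), and for LNCap only in the unnamed window on chromosome 17, at 43.5% (9.70% of tiles). At CDH1, 293T supplied 19.8% of 162 silencers (interval 13.9 to 26.7), against 29.5% on the rest of chromosome 16, and K562 supplied 44.4% (36.6 to 52.4), against 34.9%. At STK11, 293T supplied 18.8% of 112 silencers (12.0 to 27.2), which does not exclude its 24.3% on the rest of chromosome 19. At BRCA1 it supplied 20.9% of 177 (15.2 to 27.6), which does not exclude its 26.2% on the rest of chromosome 17. In the chromosome 17 window with no gene named it supplied 15.6% of 147 (10.2 to 22.5), below that value. Set against the rest of the chromosome, the interval of 293T thus excluded the reference in 2 windows (15.8% of tiles), that of K562 in 1 (5.78%) and that of LNCap in 0 (8.93%). At NF1, NF2, APC, RB1, SMAD4, ATM, BRCA2 and VHL the 293T share was within counting error of both references.

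**Figure D3:**
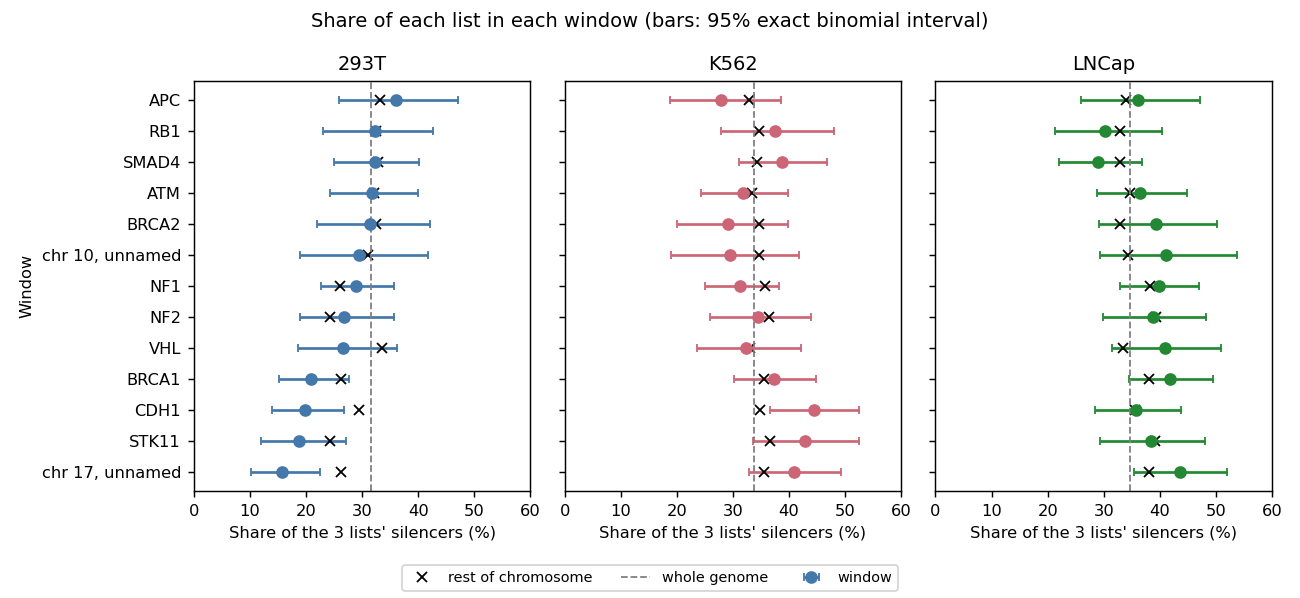
Share of the 3 lists' silencers that each list supplied in each window (x axis, %), with 95% exact binomial intervals; crosses mark the share on the rest of the chromosome and the dashed line the share genome-wide. For 293T the CDH1 and unnamed chromosome 17 windows lie to the left of their crosses with intervals that do not reach them.

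A list was called high or low in a window when its scaled count passed 2 times, or fell short of 0.5 times, the average of the remaining lists. By this rule 1 of 13 windows was low in 293T, the unnamed one on chromosome 17 (0.403 times), against 3.32% of tiles. STK11 stood at 0.501 times, just inside the limit, and CDH1 at 0.533 times. No window was high in 293T (3.51% of tiles), high or low in K562 (0.383% and 1.85%), or high or low in LNCap (0.681% and 2.76%). The highest 293T ratio was 1.23 times, at APC. These calls depend on the score: among silencers scoring at least 3, few in any window, 14 of the 39 ratios passed a limit, 7 in each direction. Of these 14, 13 had an interval that includes 1, among them CDH1 in K562 (2.59 times), RB1 in 293T (2.55 times) and the low call of 293T on chromosome 17 (0.172 times). The exception was LNCap in that unnamed window (4.82 times, interval 1.16 to 28.2). Copy number of these regions in the lines was not examined, nor was the input that each list was called against. Their part in these shares was not tested.

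Silencers of the windows overlapped other lists about as often as silencers elsewhere. Of 596 K562 members, 102 (17.1%, Wilson interval 14.3 to 20.3) overlapped a LNCap silencer by at least 1 bp, against 15.7% of the list. Of 629 LNCap members, 103 (16.4%, interval 13.7 to 19.5) overlapped K562, against 15.4%. The 293T list met the others less: 18 of 437 (4.12%, interval 2.62 to 6.42) overlapped K562, against 3.30%, and 21 (4.81%, interval 3.16 to 7.23) overlapped LNCap, against 3.58%. Conversely, 3.02% of K562 members and 3.18% of LNCap members overlapped 293T, against 3.03% and 3.23% of the lists. All 6 intervals include the value of the whole list. Members that overlapped neither other list made up 92.0% for 293T, 80.4% for K562 and 80.9% for LNCap, slightly below the 93.9%, 82.1% and 82.2% of the whole lists. With 1 list a line, a silencer missed by chance and a silencer inactive in a line cannot be told apart.

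**Figure D4:**
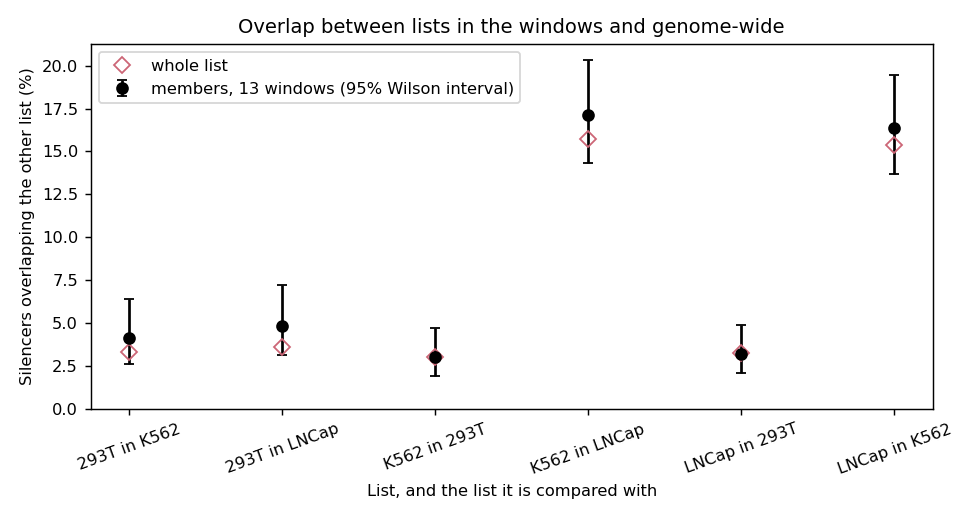
Percent of silencers in the 13 windows that overlap another list (black points, 95% Wilson intervals) for the 6 ordered pairs of lists, beside the percent over the whole list (open diamonds). The diamonds lie inside all 6 intervals, and K562 with LNCap is the highest pair at 17.1% and 16.4%.

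Overlapping members were wider and scored higher than the rest. The median K562 member that overlapped LNCap measured 94.5 bp, and the median of those that did not was 50 bp. Overlap needed only 1 bp, so a wider silencer meets another list more readily. How much of the difference in width follows from the rule was not tested. Of LNCap members scoring above the median of their list, 21.1% overlapped K562 (Wilson interval 16.9 to 25.9), against 11.7% of the others (8.62 to 15.7). For K562 members and LNCap the values were 20.7% and 14.1%, with intervals that overlap. The whole lists were not split by overlap or by score. A link of overlap with width or score therefore cannot be called particular to the windows. By window, the share of K562 members overlapping LNCap was highest at APC, with 6 of 24 (25%, interval 12.0 to 44.9), and its interval overlaps that of SMAD4, the lowest.

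Merged over lists, the members formed 1517 regions. Regions of 293T alone numbered 402 (26.5%, against 32.0% of regions genome-wide), of K562 alone 479 (31.6%, against 30.0%) and of LNCap alone 509 (33.6%, against 30.9%). K562 and LNCap together held 93 (6.13%, against 5.11%). 293T shared 16 with LNCap (1.05%, against 0.856%) and 14 with K562 (0.923%, against 0.763%). Only 4 (0.264%) were held by all 3, against 0.372% of regions genome-wide. Counted as silencers, 4 of 437 in 293T, 3 of 596 in K562 and 3 of 629 in LNCap overlapped both other lists, against 0.787%, 0.804% and 0.794% of the lists. Besides the region at VHL, they lay at CDH1 (68611501 to 68611601, scores 2.7 in 293T, 2.2 in K562 and 2.1 in LNCap), at NF1 (30925157 to 30925357, scores 2.5, 2.5 and 3.2) and in the unnamed window on chromosome 17 (scores 2.3, 2.3 and 2.6). RB1, BRCA1, BRCA2, APC, NF2, SMAD4, ATM and STK11 had none. Regions held by K562 and LNCap alone numbered 14 of 156 at BRCA1, 11 of 184 at NF1 and 10 of 99 at STK11. They numbered 4 of 149 at SMAD4, 4 of 81 at BRCA2 and 3 of 64 in the unnamed window on chromosome 10. Genome-wide such regions made up 5.11%.

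The authors' activity score was not raised in the windows. Its scale is not stated, so scores were compared within a list only. The median of the members was 2.3 in 293T, 2.2 in K562 and 2.2 in LNCap, equal to that of each list. Scores of at least 3 made up 13.5% of members in 293T (Wilson interval 10.6 to 17, against 14.2% of the list), 8.05% in K562 (6.13 to 10.5, against 9.85%) and 9.70% in LNCap (7.62 to 12.3, against 11.6%). None of the members had an infinite score. The highest scores were 6.3 in 293T and 5.9 in LNCap, both at BRCA2, and 5.5 in K562, at CDH1.

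The strongest silencers of a window often met the other list where K562 and LNCap were compared. The highest K562 score of a window overlapped LNCap in 7 of 13 windows (53.8%, Wilson interval 29.1 to 76.8), against 22.4% of tiles. The highest LNCap score overlapped K562 in 8 of 13 (61.5%, interval 35.5 to 82.3), against 25.6%. At SMAD4 these top silencers overlap each other, so the 2 counts are not independent. The tiles were not matched to the windows in density. Their median was 41.7 silencers per Mb in K562 and 43.3 in LNCap, against 68.0 and 77.1 in the windows. The part of density in these shares was not tested. The highest 293T score overlapped K562 in 2 of 13, against 5.15% of tiles, and LNCap in 0 of 13, against 5.11%. Conversely, no highest K562 score (4.45% of tiles) or highest LNCap score (4.99%) overlapped 293T. In 7 of 93 regions held by K562 and LNCap, both scored at least 3 (7.53%, interval 3.69 to 14.7), against 5.53% of such regions genome-wide. They lay at APC, ATM, BRCA2, NF1 and SMAD4, and 2 at BRCA1. This last count was chosen after its values were seen.

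**Figure D5:**
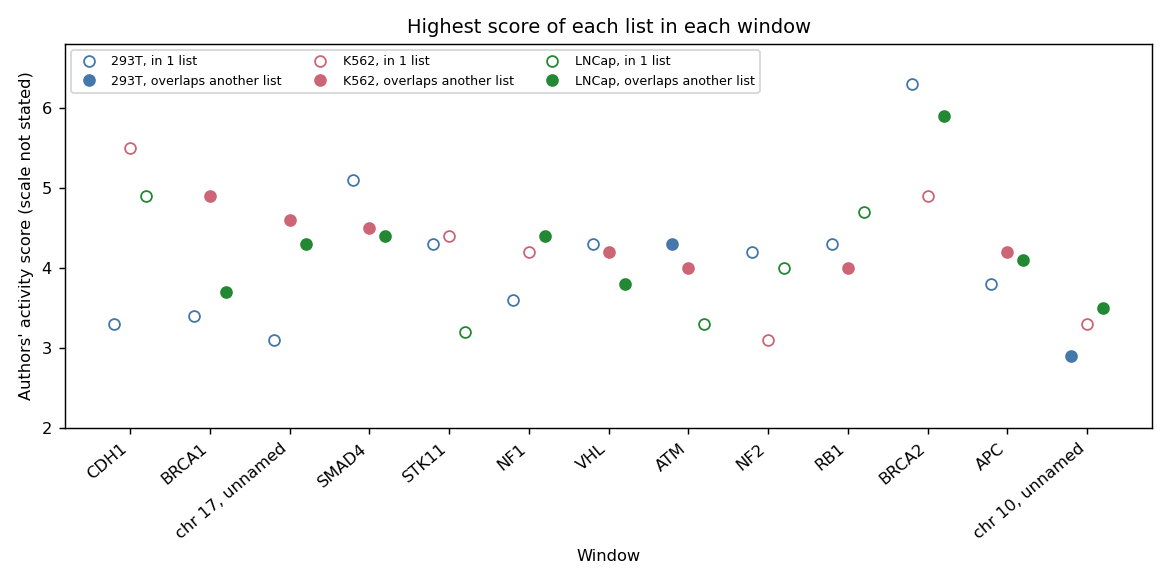
Highest finite activity score (y axis, the authors' score, to be compared within a list only) of each list in each window; filled points overlap a silencer of another list. Filled points number 7 of 13 for K562, 8 of 13 for LNCap and 2 of 13 for 293T.

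Members were short, like the lists they come from. Their median width was 50 bp in all 3 lists, and 61.6% in 293T, 58.1% in K562 and 58.7% in LNCap measured exactly 50 bp, against 64.5%, 58.7% and 60.6% of the lists. Silencers covered 0.474% of the windows for 293T, 0.715% for K562 and 0.750% for LNCap. The widest 293T member lay at BRCA1 (43181893 to 43182443, 550 bp, score 2.1). The widest LNCap member, 600 bp, lay in the unnamed window on chromosome 17. Members were closer together than silencers of the whole list, with a median gap of 9563 bp for 293T, 7551 bp for K562 and 6825 bp for LNCap, against 12850, 11477 and 11000 bp. Gaps of up to 500 bp made up 13.2%, 14.1% and 15.7% of gaps, against 13.8%, 13.3% and 14.4%. The longest runs at such gaps held 4 silencers in each list. Those of 293T (1000 bp) and K562 (1050 bp) lay in the unnamed window on chromosome 17. Another K562 run of 4, over 646 bp, lay at SMAD4 (51076335 to 51076981).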

How the data were processed

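For each line the authors deposited 1 list of silencers, in which every line gives a position and an activity, per the file headers. Bowtie2, SAMtools and hg38 are named in the submitters' processing notes, without versions. The caller of the silencers is not given in the sources used here. Activity, as deposited, is a score with a lowest value of 2 in every list.

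Broken lines, lines with an unknown chromosome and silencers over 5000 bp were left out: 58 in 293T, 12 in K562 and 25 in LNCap. A silencer belonged to a window by its midpoint. Overlap needed 1 bp. Densities carry exact Poisson intervals, overlap shares Wilson intervals and list shares exact (Clopper-Pearson) binomial intervals, all at 95%. The genome was read in 4827 tiles of 600 kb that hold a silencer; shares of lists used tiles with at least 20. No test between lines was run, since there are no replicate lists. Positions are printed as deposited, since neither labels nor headers say if the first base is 0 or 1.

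The members and lists were chosen with earlier results of these data known. The text names every window, the highest score per window and list, regions in all 3 lists, the fullest 50 kb bins, the widest members and the longest runs (gaps up to 500 bp). Silencers with identical ends, empty stretches and other bins were named after their values were seen. Positions of single silencers in the 2 windows without a gene name are not reported here. Gene annotation, sequence, motifs and other tumour suppressor genes were not analysed here. Counting and overlap were tested on simulated data. Scripts ran under Python 3.11.15. Tables used pandas 2.3.3 and numpy 2.4.6, intervals scipy 1.17.1, and figures matplotlib 3.10.9.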

Additional observations from a re-analysis of the deposited data

How the results depend on the processing

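Alternatives were merging silencers within 500 bp, scores of at least 3, only the 11 named windows, windows narrowed by 100 kb on both sides, any base in a window, other overlap rules, widths of a multiple of 50 bp only, and leaving out each window in turn. With scores of at least 3, the density relative to the list was 1.31 times in K562 (0.963 to 1.73). It was 1.37 times in LNCap (1.05 to 1.76) and 1.19 times in 293T (0.908 to 1.54). At these scores the intervals of K562 and 293T include 1, and that of LNCap does not. The 293T ratio to the other lists rose to 0.890 with an interval that includes 1. Few silencers score so high. With midpoints within 500 bp, overlap was 12.6% for 293T in K562, 11.9% for 293T in LNCap, 9.73% for K562 in 293T, 29.9% for K562 in LNCap, 8.27% for LNCap in 293T and 31.5% for LNCap in K562. With an overlap of at least 50% of the shorter silencer, K562 in LNCap was 14.1% and LNCap in K562 13.5%. Above the median score they were 20.7% and 21.1%. The whole lists were not counted under these other overlap rules. The shares therefore do not show whether members overlap more or less often than their lists under those rules. The other pooled densities, ratios, overlap shares, scores and gaps stayed inside their intervals. Member counts carry no interval here. They fell to 381 in 293T, 514 in K562 and 532 in LNCap with merging, and to 394, 516 and 537 in the 11 named windows.

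Leaving out 1 window at a time gave densities relative to the list of 1.20 to 1.30 in 293T, 1.52 to 1.68 in K562 and 1.57 to 1.72 in LNCap, and ratios to the other lists of 0.750 to 0.816, 1.06 to 1.13 and 1.12 to 1.20. Overlap ranged from 3.59% to 4.40% for 293T in K562, 4.20% to 5.38% for 293T in LNCap, 2.55% to 3.28% for K562 in 293T, 16.4% to 18.3% for K562 in LNCap, 2.80% to 3.48% for LNCap in 293T and 15.7% to 17% for LNCap in K562. The ratios of single windows held least well: with scores of at least 3, 13 of 39 changed side of 1, and calls of a list as high or low rose from 1 to 14, 13 of them with an interval that includes 1. At STK11 the K562 ratio, above 1 with all silencers, fell to 0.849 with scores of at least 3. The interval of that ratio, 0.0838 to 4.75, is wide and includes 1. The cause was not tested. Merging within 500 bp left 1 call, that of 293T in the unnamed window on chromosome 17 (0.373 times). No paired analysis was possible because each line has 1 list without replicates.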
